A study of Mus musculus with 13 samples.

Results

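The comparison described here sets the 6 testis RNA libraries labelled KO for Wfdc15a against the 4 labelled heterozygous (Het), 10 of the 13 libraries of the series. They were chosen by genotype label alone, and the 3 wild-type (WT) libraries were kept out of the fit. All came from whole testes of mice aged 15 weeks. The KO mice are labelled knockout and the Het mice carry, by their label, 1 altered and 1 normal copy. The deposited values are RPM, reads scaled to a fixed library total, so a value is the share of a library that a gene takes up and not an amount per cell. Each title ends in a number that the sources used here do not explain: KO replicates 1 to 3 and Het replicate 1 have number 1, and number 2 stands on KO replicates 4 to 6, Het replicates 2 to 4 and the WT libraries. How the knockout allele was built, the strain and the litters are not given either, so which of the KO and Het mice were littermates is not known.

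Wfdc15a codes for a small secreted protein of the whey acidic type, whose disulphide-rich fold several inhibitors of serine proteases share. The adult testis makes sperm in waves: spermatogonia divide and enter meiosis, spermatocytes become round spermatids, and these elongate, replace histones by transition proteins and then protamines, and build the flagellum. Sertoli cells nurse the germ cells inside the tubules, and Leydig cells, macrophages, vessels and fibroblasts lie between them.

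The libraries labelled KO held 4.22 to 8.23M reads on genes and the Het libraries 5.64 to 10.1M (two-sided exact permutation p = 0.367). Of the spread over all genes the first principal component took 35.3% and put every library labelled KO on one side and every Het library on the other. The second took 12.5% and set the KO libraries of title number 1, together with Het replicate 1, apart from all libraries of number 2.

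The targeted gene itself did not separate the groups. Wfdc15a lies on chromosome 2 from 164198863 to 164200130 (mm10, minus strand). It was at 31.5, 19.4, 33.4, 54.1, 48.1 and 81.3 RPM in KO replicates 1 to 6, against 55.9, 78.1, 58.2 and 69.6 RPM in Het replicates 1 to 4. The 3 KO libraries of number 1 were below every Het library, as were KO replicates 4 and 5 of number 2 by a smaller margin, whereas KO replicate 6 was the highest of the 10. Over all 10 libraries the log2 difference was -0.67 (two-sided exact permutation p = 0.11, where 0.00476 is the smallest possible), and the fit over all genes did not call it (SE 0.268, adjusted p = 0.0852). The number 1 KO libraries alone against Het gave -1.22 (exact p = 0.0286, the smallest that 3 against 4 can give), and those of number 2 gave -0.12 (exact p = 0.629). Without KO replicate 6 the log2 difference was -0.87 and the exact p 0.0318. With median-of-ratios scaling, which centres the libraries on their typical gene, it was -0.84 and the fit called it (adjusted p = 0.0341; exact p = 0.0524). The table gives 1 value per gene, so which exons the reads came from was not analysed here. As the allele is not described and this RNA did not separate the groups, the genotype labels could not be checked by this gene. For that reason "labelled KO" is used throughout.

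**Figure D1:**
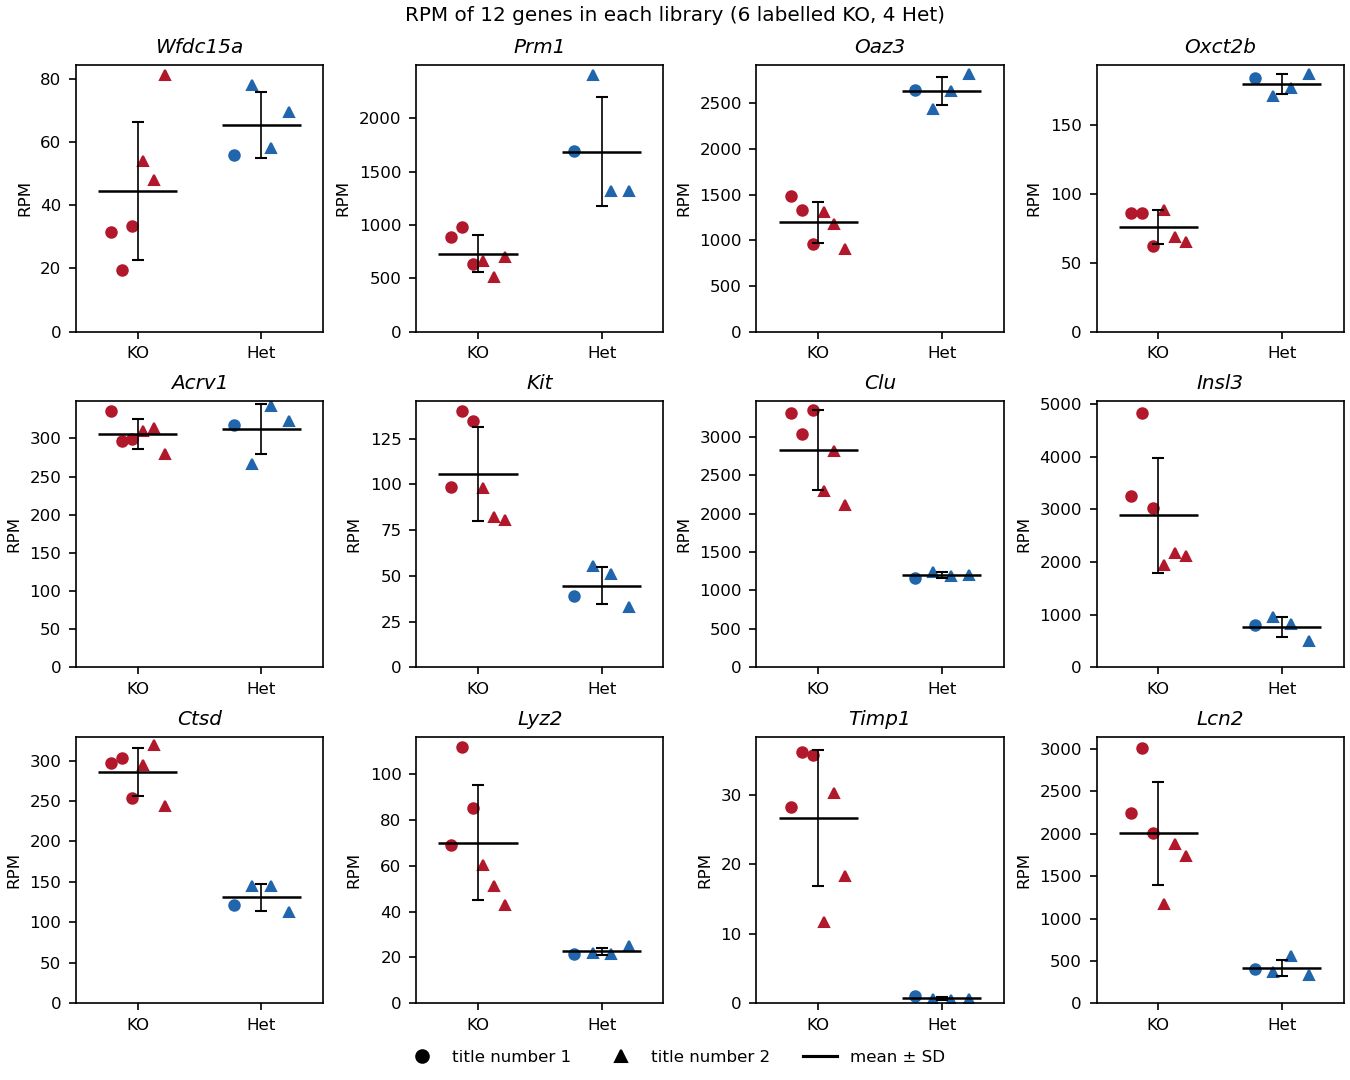
RPM (y axis, linear, from 0) of 12 genes in each of the 6 libraries labelled KO (left, red) and the 4 Het libraries (right, blue); circles are title number 1, triangles title number 2, and the black line and bar are the mean and SD. Wfdc15a and Acrv1 overlap between the groups, while Prm1, Oaz3 and Oxct2b lie lower and Kit, Clu, Insl3, Ctsd, Lyz2, Timp1 and Lcn2 higher in every library labelled KO than in any Het library.

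Many genes differed between the groups. Of 16241 tested genes, those with a mean of at least 1 RPM, 2701 were higher (16.6%) and 800 lower (4.93%) in the libraries labelled KO at an adjusted p under 0.05 (limma, log2(RPM + 1), Benjamini-Hochberg over all tested genes). The called rises had a median log2 fold change of 0.88 and the called falls one of -0.58. All 6 libraries labelled KO lay above all 4 Het libraries for 1691 of the called rises and below them for 580 of the called falls, and over all tested genes, called or not, such separation upward was found in 11.4% and downward in 4.10%. The median of all tested genes was itself 0.17 on the log2 scale. It was 0.01 with median-of-ratios scaling, under which 1604 genes were higher (9.88%) and 1483 lower (9.13%). Quantile normalization moved it to -0.02 and gave 1282 higher (7.89%) and 1196 lower (7.36%). The medians of the rises and falls were 0.89 and -0.61 with median-of-ratios scaling and 0.82 and -0.71 with quantile normalization. The split between rises and falls therefore depends on the scaling, and 1130 rises and 708 falls were called under all 3. Among libraries of title number 2 alone, 3 against 3, 975 genes were higher (6.05%) and 493 lower (3.06%), and no gene called in both fits changed its direction. The KO libraries of number 1 against all Het libraries gave 2600 higher (16.0%) and 745 lower (4.60%), and those of number 2 gave 1474 (9.15%) and 684 (4.25%). The count of a gene list under 1 of these settings stands against that setting's own share of all tested genes.

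**Figure D2:**
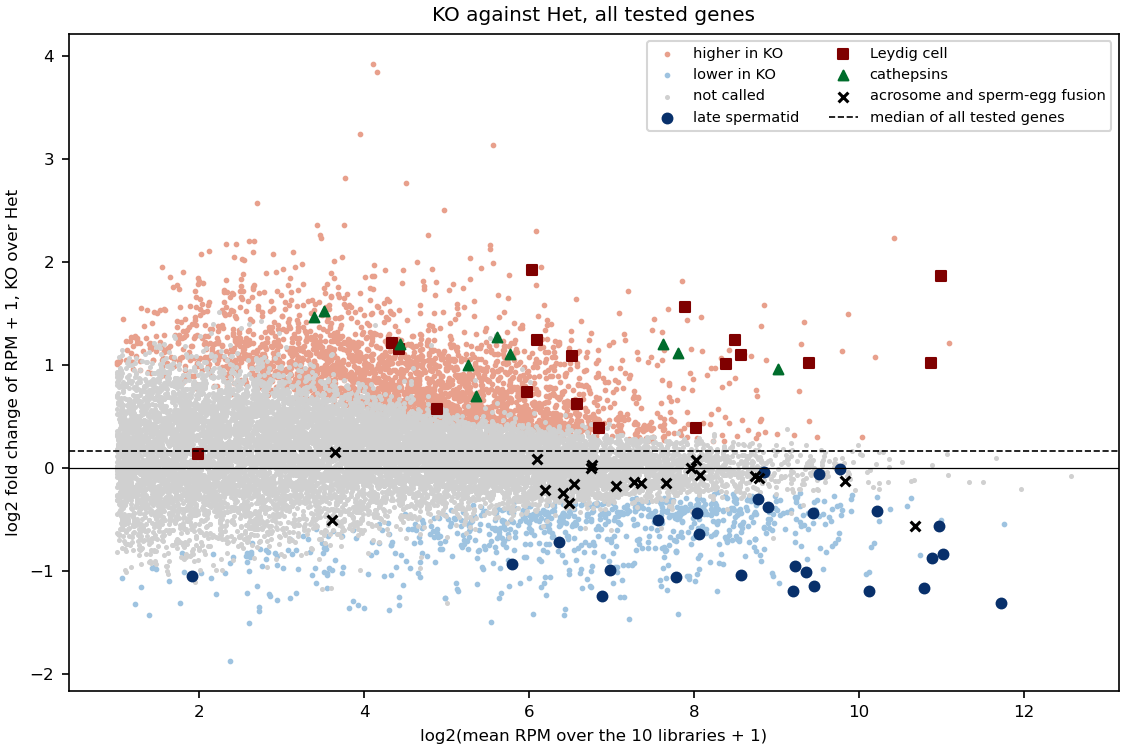
Log2 fold change of RPM + 1, KO over Het (y axis), against log2 of the mean RPM over the 10 libraries plus 1 (x axis), 1 point per tested gene. Late spermatid genes (dark blue circles) lie below 0 and Leydig cell genes (dark red squares) and cathepsins (green triangles) above it, acrosome genes (crosses) lie close to 0, 15 of 20 below it and all 20 below the dashed line, which is the median of all tested genes, 0.17.

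The 12 genes with the largest rises were taken among called genes without overlap between the groups. Predicted genes (Gm followed by digits) and genes whose symbol ends in Rik were left aside. The 12 included several secreted proteins. Timp1, an inhibitor of matrix metalloproteases, had a lowest, median and highest value of 11.7, 29.2 and 36.2 RPM in the 6 libraries labelled KO, against 1.01, 0.629, 0.551 and 0.674 RPM in Het replicates 1 to 4 (log2 fold change 3.92, SE 0.292, adjusted p = 6.09e-07). It lies on chromosome X from 20870166 to 20874735, inside Syn1 on the opposite strand, and the counting is not stated to use strand. Syn1, also among the 12 (3.85), had nearly the values of Timp1 in every library. It was at 13.1, 29.9 and 36.9 RPM in the libraries labelled KO, against 1.39, 0.629, 0.688 and 0.842 RPM in Het. The rise of Syn1 can therefore not be taken as separate from that of Timp1, and counts over the 12 hold both. Lrg1, a leucine-rich glycoprotein of the acute phase, had 25, 75.3 and 106 RPM in the libraries labelled KO, against 6.56, 8.54, 9.5 and 3.37 RPM in Het (log2 fold change 3.14, SE 0.325, adjusted p = 6.58e-06). Lcn2, which binds iron-carrying siderophores, had 1166, 1943 and 3007 RPM in the libraries labelled KO, against 410.2, 367, 556 and 335 RPM in Het (log2 fold change 2.23, SE 0.186, adjusted p = 1.33e-06). By the rule of choice, no Het library reached the lowest library labelled KO for Timp1, Lrg1 or Lcn2.

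The others, with their log2 fold changes, were the vessel receptor Robo4 (2.57), the actin-binding calponin Cnn3 (2.50), the complement protease Masp1 (2.36), the growth factor binding protein Igfbp3 (2.35), the transglutaminase Tgm2 (2.30, which overlaps Rprd1b on the other strand), the acute phase serpin Serpina3n (2.26), the receptor partner Ramp1 (2.24) and the ubiquitin ligase Trim2 (2.21). Serpina3n belongs to a cluster of near copies, between which reads could be split. All 12 were also called with median-of-ratios scaling, with quantile normalization and among libraries of title number 2 alone.

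The 12 genes with the largest falls, chosen in the same way, included known sperm genes. Prm2, a protamine that packs sperm DNA, had 1556, 2108 and 2902 RPM in the libraries labelled KO, against 5409, 5741, 4642 and 4950.0 RPM in Het (log2 fold change -1.30, SE 0.153, adjusted p = 1.88e-05). Tppp2, a tubulin-binding protein of sperm, had 20.8, 24.4 and 38 RPM, against 72.2, 93.4, 68.8 and 64.5 RPM in Het (log2 fold change -1.49, SE 0.173, adjusted p = 1.72e-05). Bpifa3, of the BPI-fold family of secreted lipid-binding proteins, had 41.6, 50.5 and 64.2 RPM in the libraries labelled KO, against 131, 142, 146 and 125 RPM in Het (log2 fold change -1.37, SE 0.13, adjusted p = 3.55e-06). By the rule of choice, each of these 3 had every library labelled KO below every Het library.

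The largest fall of the 12 was that of the olfactory receptor gene Olfr733 (0.654, 1.2 and 2.86 RPM in the libraries labelled KO, against 7.95, 6.74, 7.99 and 9.6 RPM in Het, log2 -1.87). The list also held, with log2 fold changes, the beta-defensin Defb33 (-1.33), the outer dense fibre relative Odf3b (-1.29), the calmodulin-like Calml4 (-1.35), the EF-hand gene Efcab1 (-1.33), the cell adhesion gene Dscaml1 (-1.35), Fam131b (-1.38), AC113312.1 (-1.42) and the netrin receptor Unc5a (-1.32). Unc5a was low, at 0 to 1.22 RPM in the libraries labelled KO and 1.38 to 3.37 RPM in Het, and its call ended among libraries of number 2 (adjusted p = 0.0881). Fam131b and Unc5a each overlap a gene of the other strand.

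**Figure D3:**
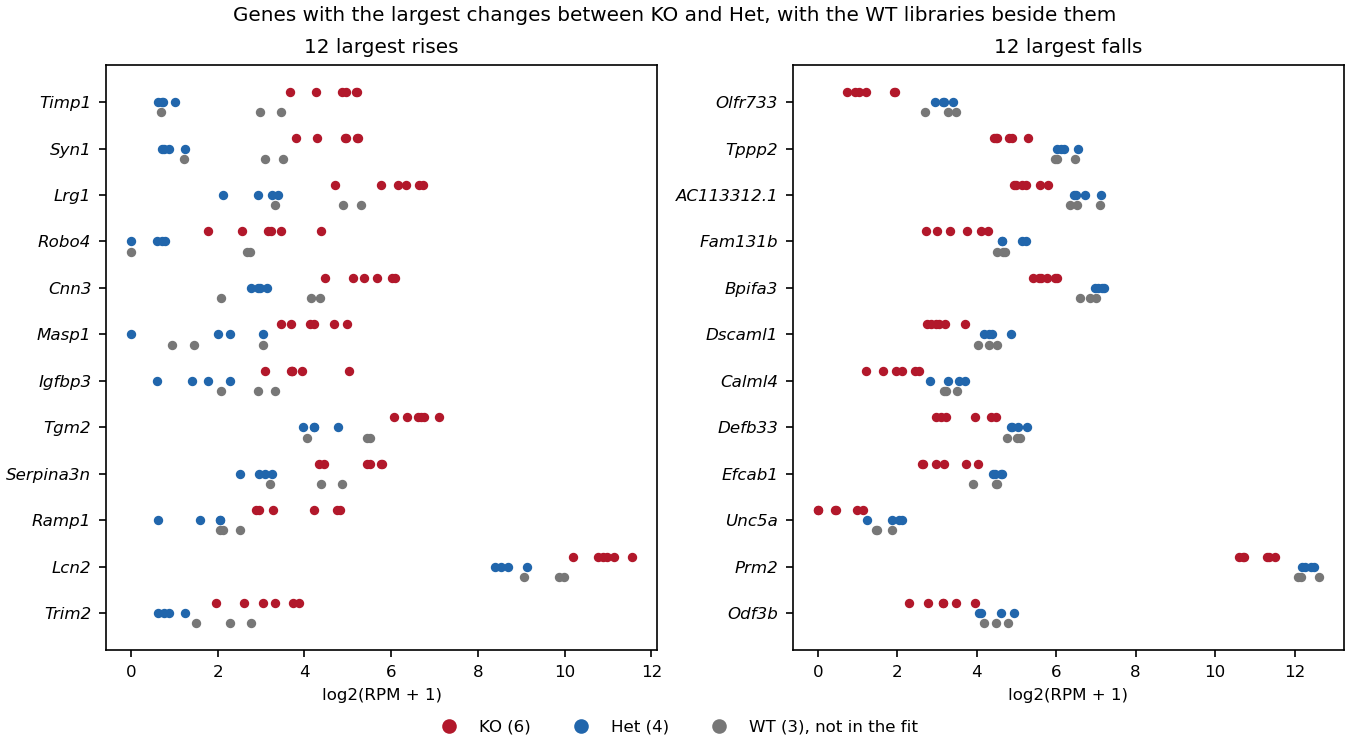
Log2(RPM + 1) (x axis) of the 12 largest rises (left) and 12 largest falls (right) between the libraries labelled KO (red, 6) and Het (blue, 4), 1 point per library, with the 3 WT libraries (grey), which were not in the fit, below them. WT replicates 2 and 3 lie above all Het libraries for 11 of the 12 rises each. WT replicates 1, 2 and 3 lie within the KO range for 1, 5 and 3 of the 12 rises and for 0, 1 and 0 of the 12 falls.

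Transcripts of late, elongating spermatids fell together. Of 27 tested members 24 fell and 0 rose, where 4.93% of all tested genes fell, and the median log2 fold change was -0.87 beside 0.17 for all. Prm1, the other protamine, had 516, 679 and 982 RPM in the libraries labelled KO, against 1694, 2402, 1320.0 and 1317 RPM in Het (log2 fold change -1.19, SE 0.171, adjusted p = 9.96e-05). Oaz3, an antizyme that controls polyamines in spermatids, had 905, 1245 and 1486 RPM in the libraries labelled KO, against 2648, 2436, 2634 and 2821 RPM in Het (log2 fold change -1.16, SE 0.118, adjusted p = 5.77e-06). Oxct2b, a spermatid enzyme of ketone body use, had 61.7, 77.1 and 88.4 RPM, against 184, 171, 176 and 187 RPM in Het (log2 fold change -1.24, SE 0.121, adjusted p = 3.57e-06). It has a near copy, Oxct2a, between which reads could be split, and it overlaps Bmp8b. Spata3, a sperm gene of unsettled role, had 217, 275 and 305 RPM in the libraries labelled KO, against 502, 553, 541 and 595 RPM in Het (log2 fold change -1.04, SE 0.103, adjusted p = 4.17e-06). No library labelled KO reached the Het range for any of these 4.

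The members that did not pass, with log2 fold changes, were Actl7b (-0.06), Tekt4 (-0.04) and Pabpc2 (-0.01). Per library, the mean level of the list relative to the Het mean was -0.94 to -0.53 on the log2 scale in the libraries labelled KO, against -0.07 to 0.05 in Het. With median-of-ratios scaling 24 fell, with quantile normalization 20, and among libraries of title number 2 alone 20. In whole testis, fewer cells of a type and less of an RNA in each cell cannot be told apart, here or in any list below.

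Genes of the flagellum's fibrous sheath and outer dense fibres also fell, 11 of 16 (4.93% of all tested genes) with none higher and a median of -0.42; 5 of the 16 also stand on the late spermatid list. Akap4, the main anchoring protein of the fibrous sheath, had 1159, 1603 and 1843 RPM in the libraries labelled KO, against 2906, 2228, 2896 and 3176 RPM in Het (log2 fold change -0.83, SE 0.122, adjusted p = 1.17e-04). Its partner Akap3 had 583 to 744 RPM, against 608 to 895 RPM in Het, and did not pass (log2 fold change -0.21, SE 0.103, adjusted p = 0.167), though it did with median-of-ratios scaling (log2 -0.38, adjusted p = 0.0193) and without Het replicate 2 (adjusted p = 0.0138). Odf2, a main protein of the dense fibres, had 2642, 2927 and 3214 RPM in the libraries labelled KO, against 4274, 3926, 4445 and 4364 RPM in Het (log2 fold change -0.54, SE 0.0753, adjusted p = 8.33e-05). The scaling changed the count of this list to 15 (median of ratios) or 8 (quantile) of 16.

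Among histone variants and chromatin factors of germ cells 2 of 12 fell, the linker histones H1fnt and Hils1, where 4.93% of all tested genes fell. The testis linker histone Hist1h1t did not pass (log2 fold change -0.43, SE 0.295, adjusted p = 0.33), nor did the other 9. H1fnt had 431, 478 and 600.1 RPM in the libraries labelled KO, against 847, 783, 828 and 854 RPM in Het (log2 fold change -0.75, SE 0.101, adjusted p = 5.93e-05). Hils1, another spermatid linker histone, had 436 to 558 RPM, against 619 to 692 RPM in Het (log2 -0.42). Its call ended with quantile normalization (adjusted p = 0.0617), and it overlaps Sgca on the other strand.

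Glycolytic enzymes of sperm fell in part. Of 14 tested genes for sperm forms and their somatic counterparts 5 fell and 1 rose, where 4.93% of all tested genes fell and 16.6% rose (median -0.10). Hk1, hexokinase, had 779, 912 and 1095 RPM in the libraries labelled KO, against 1526, 1303, 1595 and 1675 RPM in Het (log2 fold change -0.73, SE 0.102, adjusted p = 8.49e-05). Gapdhs, the sperm form of glyceraldehyde phosphate dehydrogenase, had 50.7, 61.5 and 86.2 RPM in the libraries labelled KO, against 108, 107, 117 and 92.5 RPM in Het (log2 fold change -0.72, SE 0.134, adjusted p = 9.90e-04). Pgk2, the sperm form of phosphoglycerate kinase, had 553, 724 and 829.8 RPM, against 1113, 974, 1154 and 1125 RPM in Het (log2 fold change -0.63, SE 0.108, adjusted p = 4.78e-04). Ldhc, the germ cell lactate dehydrogenase, kept overlapping ranges (5664 to 6493 RPM in the libraries labelled KO, against 5864 to 6927 RPM in Het, log2 fold change -0.08, SE 0.0715, adjusted p = 0.491), and was called lower only with median-of-ratios scaling (log2 -0.25, adjusted p = 0.0345), under which 8 of the 14 fell.

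The stretch of DNA around the start of a gene is shown for a few of the genes that fell, because many genes of spermatids share a short sequence there. The letters TGATGTCA, 1 base away from the cAMP response element TGACGTCA that CREM-type factors bind, were searched on both strands from 250 bases before to 50 bases after each start in RefSeq (GRCm38.p6). TGATGTCA was chosen after some of these windows had been viewed. Capitals mark TGATGTCA as read on the strand of the gene. The windows are those of Tnp1 (chr1:73015850-73016149, minus strand), Smcp (chr3:92589024-92589323, minus strand), Akap4 (chrX:7067265-7067564, plus strand), Actl7a (chr4:56743172-56743471, plus strand) and Prm1 (chr16:10796774-10797073, minus strand), the last without either sequence, and Tnp1, Smcp and Actl7a were picked with their values and windows in view.
Tnp1: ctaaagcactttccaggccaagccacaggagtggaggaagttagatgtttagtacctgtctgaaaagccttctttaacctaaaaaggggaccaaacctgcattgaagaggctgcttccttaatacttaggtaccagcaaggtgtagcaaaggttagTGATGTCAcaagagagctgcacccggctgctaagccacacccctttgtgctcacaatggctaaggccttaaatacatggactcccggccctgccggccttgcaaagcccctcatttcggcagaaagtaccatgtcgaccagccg
Smcp: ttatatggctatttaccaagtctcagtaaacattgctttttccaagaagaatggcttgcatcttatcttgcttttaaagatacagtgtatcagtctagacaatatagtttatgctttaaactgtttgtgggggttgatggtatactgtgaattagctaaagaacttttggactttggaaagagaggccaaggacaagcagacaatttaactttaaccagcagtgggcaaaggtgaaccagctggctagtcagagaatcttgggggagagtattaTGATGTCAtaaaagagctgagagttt
Akap4: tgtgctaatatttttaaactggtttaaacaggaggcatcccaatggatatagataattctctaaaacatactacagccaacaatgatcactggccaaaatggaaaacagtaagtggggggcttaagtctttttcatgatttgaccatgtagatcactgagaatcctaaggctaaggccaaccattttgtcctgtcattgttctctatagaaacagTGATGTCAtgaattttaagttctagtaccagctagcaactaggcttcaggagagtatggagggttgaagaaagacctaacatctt
Actl7a: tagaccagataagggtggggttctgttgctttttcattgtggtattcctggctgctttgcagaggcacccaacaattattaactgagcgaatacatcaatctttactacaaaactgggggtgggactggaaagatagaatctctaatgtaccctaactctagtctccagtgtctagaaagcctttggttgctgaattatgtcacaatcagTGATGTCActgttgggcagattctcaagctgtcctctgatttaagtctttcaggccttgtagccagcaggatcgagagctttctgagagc
Prm1: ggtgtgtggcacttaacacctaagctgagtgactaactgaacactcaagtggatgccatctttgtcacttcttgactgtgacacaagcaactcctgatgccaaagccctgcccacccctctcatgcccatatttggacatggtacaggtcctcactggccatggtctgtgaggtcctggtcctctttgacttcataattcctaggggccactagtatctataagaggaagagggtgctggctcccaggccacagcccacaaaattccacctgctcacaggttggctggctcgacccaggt

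Tnp1, a transition protein that acts between histones and protamines, had 359, 429.7 and 588 RPM in the libraries labelled KO, against 1066, 1500.0, 773 and 848 RPM in Het (log2 fold change -1.14, SE 0.163, adjusted p = 9.94e-05). Smcp, of the sperm mitochondrial capsule, had 314, 384 and 484 RPM, against 884, 1043, 801 and 816 RPM in Het (log2 fold change -1.19, SE 0.121, adjusted p = 5.77e-06). Actl7a, an actin-like protein of the spermatid head, had 339.5, 399.9 and 458 RPM in the libraries labelled KO, against 525, 432, 500.0 and 509.7 RPM in Het (log2 fold change -0.30, SE 0.0941, adjusted p = 0.0276). The first pair of genes had no overlap between groups, while for Actl7a the ranges overlapped.

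A window was available for 10936 of the 16241 tested genes. TGATGTCA stood in 59 of 523 windows of genes called lower (11.3%), in 32 of 1951 of genes called higher (1.6%) and in 2.5% of all windows. On the late spermatid list it was in 8 of 22, and on the Sertoli and Leydig cell lists in none of 16 and 12. On the round spermatid and acrosome lists, most of whose genes were not called lower, it was in 3 of 14 and 4 of 19. On the peritubular myoid list it was in 2 of 9. The palindrome TGACGTCA was in 3.4% of windows of genes called lower, 2.9% of those called higher and 3.0% of all. These are counts of letters, not of bound sites, and no test was made of them.

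Of earlier germ cell stages, round spermatid genes fell in 4 of 19 cases without a rise, where 4.93% of all tested genes fell, with a median of -0.14. The falls numbered 8 with median-of-ratios scaling and 2 among libraries of number 2. Tssk2, a spermatid kinase with close paralogs, had 320.3, 374 and 485 RPM in the libraries labelled KO, against 593, 552, 588 and 544 RPM in Het (log2 fold change -0.58, SE 0.106, adjusted p = 9.14e-04). Pgam2 and Cst13 fell by 0.44 and 0.43 on the log2 scale, the call of Pgam2 ending among libraries of number 2 (adjusted p = 0.0668). Acrv1, an acrosomal protein that marks round spermatids, had 279 to 336 RPM in the libraries labelled KO, against 266 to 342 RPM in Het (log2 fold change -0.03, SE 0.0912, adjusted p = 0.867).

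The proteins of the acrosome and of sperm-egg fusion showed 1 fall among 20 tested genes, where 4.93% of all fell (median -0.13), that of the secreted protein Crisp2 (log2 fold change -0.56, SE 0.0969, adjusted p = 5.44e-04). Izumo1, needed for fusion with the egg, had 64.5, 77.2 and 96.1 RPM in the libraries labelled KO, against 104, 91.2, 122 and 88.1 RPM in Het (log2 fold change -0.33, SE 0.133, adjusted p = 0.0811). It passed with median-of-ratios scaling (adjusted p = 0.0122), where 6 of the list fell (4 with quantile normalization), and without KO replicate 1 (adjusted p = 0.0483). Tmem95, another fusion protein, had 4.25 to 13.3 RPM in the libraries labelled KO and 11.3 to 17 RPM in Het (log2 fold change -0.50, SE 0.261, adjusted p = 0.185), and passed with quantile normalization (adjusted p = 0.0402). The protease of the acrosome, Acr, had 219 to 295 RPM in the libraries labelled KO, against 226 to 273 RPM in Het.

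Of 12 sperm axoneme genes 1 fell (4.93% of all tested genes), the central pair gene Hydin (log2 fold change -0.38, SE 0.114, adjusted p = 0.0227). Its call ended without Het replicate 1 (adjusted p = 0.0797), without Het replicate 2 (0.0509) and among libraries of number 2 (0.284). Ccdc39, part of the ruler that sets the axonemal repeat, had 108 to 146 RPM in the libraries labelled KO, against 123 to 143 RPM in Het (log2 -0.04). Of 25 genes written for this list only 12 were found under the symbols used. All its dynein (Dnah and Dnai) and Cfap genes were among those not found, so they were not examined.

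Among 17 pachytene and diplotene spermatocyte genes 1 fell, Pgk2, where 4.93% of all tested genes fell. The falls numbered 6 with median-of-ratios scaling, 3 with quantile normalization and 2 without KO replicate 5. Of 17 genes of meiotic entry 1 fell, Syce2 of the synaptonemal complex (log2 fold change -0.59, SE 0.116, adjusted p = 0.00151), which overlaps Gcdh on the other strand. The axis and central element proteins Sycp3 (105 to 149 RPM in the libraries labelled KO, against 104 to 128 RPM in Het) and Sycp1 (36.1 to 55.3 RPM, against 35.2 to 64.5 RPM in Het) overlapped between groups, with adjusted p = 0.736 and 0.973. The sign of both turned negative with median-of-ratios scaling (log2 -0.11 and -0.16).

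Some genes of dividing spermatogonia were higher. For differentiating spermatogonia, 3 of 9 tested genes rose (16.6% of all tested genes) with none lower (median 0.39). Kit, the receptor for stem cell factor, which Leydig and mast cells also carry, had 80.8, 98.2 and 140.1 RPM in the libraries labelled KO, against 39.1, 55.2, 50.9 and 33.2 RPM in Het (log2 fold change 1.22, SE 0.175, adjusted p = 1.01e-04). Ccnd2, a cyclin of the entry into division, had 10.6, 13.7 and 22.4 RPM, against 3.41, 5.39, 3.85 and 5.22 RPM in Het (log2 fold change 1.54, SE 0.241, adjusted p = 2.13e-04). Both were without overlap.

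Stra8, which starts meiosis, had 14, 26.6 and 43 RPM in the libraries labelled KO, against 13.8, 17.3, 11.4 and 14 RPM in Het, with overlap (log2 fold change 0.83, SE 0.25, adjusted p = 0.0228). Its call ended with median-of-ratios scaling (adjusted p = 0.0649), with quantile normalization (0.147), among libraries of number 2 (0.271) and without Het replicate 1 (0.0539), Het replicate 3 (0.074), Het replicate 4 (0.0529) or KO replicate 3 (0.052). Of 11 tested genes of undifferentiated spermatogonia 1 rose (3 without KO replicate 1), a share of 9.09% beside 16.6% of all tested genes. The rise was that of the proteoglycan Sdc4 (log2 fold change 1.11, SE 0.133, adjusted p = 2.10e-05), which Sertoli cells also make. The stem cell genes Zbtb16 (2.38 to 13.5 RPM in the libraries labelled KO, against 1.26 to 3.17 RPM in Het, log2 fold change 0.90, SE 0.36, adjusted p = 0.0848) and Gfra1 (9.67 to 18.8 RPM, against 9.72 to 21.1 RPM in Het, log2 fold change -0.35, SE 0.249, adjusted p = 0.35) did not pass. Zbtb16 did pass without KO replicate 1 (adjusted p = 0.0392) and with title number as a covariate (0.0244).

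Sertoli cell genes were higher, 18 of 26 with none lower and a median of 0.94, where 16.6% of all tested genes rose. Clu, the secreted chaperone clusterin, had 2116, 2928 and 3351 RPM in the libraries labelled KO, against 1158, 1244, 1190.0 and 1207 RPM in Het (log2 fold change 1.21, SE 0.114, adjusted p = 3.41e-06). Vim, the intermediate filament of Sertoli and other somatic cells, had 85.2, 120.5 and 139 RPM in the libraries labelled KO, against 39.8, 61.6, 42.7 and 42.8 RPM in Het (log2 fold change 1.33, SE 0.149, adjusted p = 1.33e-05). Ctsl, a cathepsin that Sertoli cells secrete in a stage-dependent way, had 448, 689.8 and 772 RPM, against 358, 352, 314 and 280.1 RPM in Het (log2 fold change 0.97, SE 0.139, adjusted p = 1.03e-04). For these 3 the groups were apart, and the 4 Het libraries lay closest together for Clu.

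The transcription factors that define the cell type also rose. Wt1 had 39.2, 54.5 and 62.6 RPM in the libraries labelled KO, against 24.5, 32.9, 31.9 and 25.4 RPM in Het (log2 fold change 0.87, SE 0.151, adjusted p = 5.40e-04). Sox9 had 16.6, 24.6 and 27.2 RPM, against 8.46, 17.4, 7.3 and 10.8 RPM in Het, where the highest Het library passed the lowest library labelled KO (log2 fold change 1.03, SE 0.23, adjusted p = 0.00366). Its call ended among libraries of number 2 (adjusted p = 0.136), among which 11 of the 26 rose.

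Leydig cell genes were also higher, 15 of 18 (16.6% of all tested genes) with none lower and a median of 1.05. Insl3, the hormone of testis descent, had 1941, 2594 and 4837 RPM in the libraries labelled KO, against 809, 952, 832 and 499.6 RPM in Het (log2 fold change 1.86, SE 0.211, adjusted p = 1.39e-05); it overlaps Jak3 on the same strand. Hsd17b3, which makes testosterone, had 57, 91.9 and 140.3 RPM in the libraries labelled KO, against 22, 19.1, 22.6 and 28.1 RPM in Het (log2 fold change 1.92, SE 0.198, adjusted p = 6.30e-06). Cyp11a1, which cuts the side chain of cholesterol, had 402, 447 and 541 RPM, against 140.0, 266, 196 and 199 RPM in Het (log2 fold change 1.24, SE 0.139, adjusted p = 1.33e-05). The groups did not overlap in any of them.

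Star, which carries cholesterol into mitochondria, had 262, 357 and 723 RPM in the libraries labelled KO, against 197, 253, 163 and 188 RPM in Het (log2 fold change 1.01, SE 0.208, adjusted p = 0.00208), and Gstm1, a glutathione transferase of a family of near copies, 761, 808 and 1014 RPM, against 388, 421, 486 and 374 RPM in Het (log2 fold change 1.02, SE 0.0977, adjusted p = 3.57e-06). The rises numbered 12 under median-of-ratios scaling and also 12 among libraries of number 2.

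Enzymes of cholesterol synthesis rose in part, 11 of 18 (16.6% of all tested genes) with none lower and a median of 0.52. The count was 6 with median-of-ratios scaling, 4 with quantile normalization, 4 among libraries of number 2 and 6 without Het replicate 1. Dhcr7, of the last step, had 80.3, 132 and 213 RPM in the libraries labelled KO, against 29.3, 79.4, 55.2 and 68 RPM in Het (log2 fold change 1.24, SE 0.244, adjusted p = 0.00142). Nsdhl and Ebp, of the steps before it, rose by 0.82 and 1.06 on the log2 scale.

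Other somatic cells of the testis were mixed. Fibroblast genes rose in 7 of 14 cases (16.6% of all tested genes) with none lower (median 0.76). In KO libraries of number 1 set against Het, with a replicate block and without Het replicate 1, 1 member was called lower. Of those that did not pass, Mfap5 (log2 fold change -0.88), Lum (-0.64) and Dpt (-0.17) lay below 0. Pdgfrb (0.30), Igf1 (0.33), Tcf21 (0.34) and Col6a2 (0.39) lay above it. Sparc, a matrix protein also made by Sertoli and Leydig cells, had 633, 858 and 1137 RPM in the libraries labelled KO, against 295, 379, 329.9 and 269 RPM in Het (log2 fold change 1.41, SE 0.145, adjusted p = 6.30e-06). Col3a1 had 33.5, 43.3 and 69 RPM in the libraries labelled KO, against 12.5, 15, 14.7 and 17.5 RPM in Het (log2 fold change 1.55, SE 0.184, adjusted p = 2.10e-05), and the proteoglycan Dcn rose by 1.34 and the receptor Pdgfra by 1.13 on the log2 scale. Col1a1 (log2 fold change 1.23, SE 0.386, adjusted p = 0.0292) overlapped between groups, and its call ended without Het replicate 4 (adjusted p = 0.115), its lowest library, without KO replicate 2 (0.0587) or KO replicate 3 (0.062) and with median-of-ratios scaling (0.0575).

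Of 13 peritubular myoid genes 6 rose and 1 fell, where 16.6% of all tested genes rose and 4.93% fell (median 0.73), with 2 rises left with quantile normalization, 2 among libraries of number 2 and 3 without Het replicate 3. Acta2, smooth muscle actin, had 47.6, 64.8 and 103 RPM in the libraries labelled KO, against 39.4, 44.9, 35.4 and 39.9 RPM in Het (log2 fold change 0.73, SE 0.179, adjusted p = 0.00696), a call that ended among libraries of number 2 (adjusted p = 0.0689). The fall was that of Actg2, another muscle actin, at 141, 175 and 188 RPM in the libraries labelled KO, against 251, 251, 295 and 275 RPM in Het (log2 fold change -0.67, SE 0.102, adjusted p = 1.86e-04), without overlap. From which cells its RNA came was not tested.

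Endothelial genes rose in 5 of 16 cases, where 16.6% of all tested genes rose (median 0.47). With quantile normalization 3 rose, with a median of 0.22. Robo4 was at 2.41 to 19.8 RPM in the libraries labelled KO and 0 to 0.719 RPM in Het. The receptor Kdr had 5.05, 16.1 and 20.5 RPM in the libraries labelled KO, against 1.26, 7.64, 0.688 and 1.69 RPM in Het (log2 fold change 2.26, SE 0.416, adjusted p = 8.85e-04), with 1 Het library inside the KO range, and the junction gene Cldn5 10.7, 15.4 and 20.8 RPM, against 7.7, 4.85, 4.41 and 5.05 RPM in Het (log2 fold change 1.32, SE 0.247, adjusted p = 0.00101). Cdh5, the cadherin of endothelium, had 3.22 to 8.05 RPM in the libraries labelled KO, against 0.0899 to 3.71 RPM in Het (log2 fold change 1.39, SE 0.393, adjusted p = 0.0168), and lost its call without Het replicate 2 (adjusted p = 0.0715) or Het replicate 3 (0.0686). Pecam1, also a defining marker, had 0.701 to 5.98 RPM in the libraries labelled KO and 0.126 to 4.31 RPM in Het (log2 fold change 0.83, SE 0.44, adjusted p = 0.194), and passed without Het replicate 2 (adjusted p = 0.0402).

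Macrophage genes were higher, 14 of 20 with 1 lower and a median of 1.10, where 16.6% of all tested genes rose and 4.93% fell. Lyz2, the lysozyme of myeloid cells, had 42.8, 64.6 and 112 RPM in the libraries labelled KO, against 21.7, 22.1, 21.6 and 25.1 RPM in Het (log2 fold change 1.52, SE 0.205, adjusted p = 6.32e-05). Tyrobp, a signalling adaptor, had 5.61, 7.88 and 11.8 RPM in the libraries labelled KO, against 2.15, 1.62, 1.51 and 2.53 RPM in Het (log2 fold change 1.57, SE 0.267, adjusted p = 4.47e-04). Csf1r, the growth factor receptor of macrophages, had 27.4, 37.6 and 50.6 RPM, against 21.8, 20.9, 13.2 and 20.6 RPM in Het (log2 fold change 0.98, SE 0.193, adjusted p = 0.00142). No Het library reached the libraries labelled KO in any of the 3.

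Cd68, the other defining marker, had 2.28, 9.43 and 14.4 RPM in the libraries labelled KO, against 4.42, 4.04, 3.44 and 1.35 RPM in Het, with overlap (log2 fold change 1.11, SE 0.393, adjusted p = 0.0512). It passed without KO replicate 5 (adjusted p = 0.00647) and in KO libraries of number 1 set against Het (0.00131). Aif1, which is on the list, fell and had 222, 238 and 285 RPM in the libraries labelled KO, against 405, 378, 370.5 and 387 RPM in Het (log2 fold change -0.64, SE 0.0926, adjusted p = 1.15e-04); the cells that gave this RNA were not identified. The list was uneven over the libraries labelled KO: its mean level was 1.39 above the Het mean in number 1 and 0.69 in number 2. The rises numbered 4 of 19 among libraries of number 2 and 7 of 20 with quantile normalization.

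Of 19 genes of other leukocytes 5 reached 1 RPM on average, with 1 rise and 2 falls, where 16.6% of all tested genes rose and 4.93% fell. Cd8a, Ncr1, S100a8 and Mcpt4 had no read in any of the 10 libraries. The list summed to 95.5 to 157 RPM in the libraries labelled KO and 59.3 to 87.4 RPM in Het. Kit, described above, was the rise and gave most of this sum in the libraries labelled KO. The sum therefore does not stand for the other leukocyte genes. Ptprc, the common leukocyte antigen, had 0, 1.6 and 4.42 RPM in the libraries labelled KO, against 0.126, 0.629, 2.34 and 0.169 RPM in Het (log2 fold change 0.51, SE 0.5, adjusted p = 0.512). The T cell receptor chain Cd3d had 6.22 to 12.2 RPM in the libraries labelled KO, against 12.9 to 19.7 RPM in Het (log2 fold change -0.89, SE 0.222, adjusted p = 0.00794), while Cd3e, Cd4 and Cd8a stayed under the 1 RPM limit. Flt3 fell by 1.22 on the log2 scale, a call that ended without Het replicate 1 (adjusted p = 0.0556), Het replicate 2 (0.0753) or Het replicate 4 (0.101).

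Red blood cell genes did not pass: Hba-a1, of a globin pair with near-identical copies, had 1.38 to 2.62 RPM in the libraries labelled KO and 1.14 to 4.49 RPM in Het, and its twin Hba-a2 is listed at 0 throughout. Of 14 genes of epididymis and rete testis 5 were tested and 1 rose, Spint2 (log2 fold change 0.36, SE 0.102, adjusted p = 0.0173), which lost its call with median-of-ratios scaling (adjusted p = 0.233) and without Het replicate 3 (0.0679). Lcn5, Lcn8 and Defb2, which define epididymal epithelium, had no reads in any of the 10 libraries.

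**Figure D4:**
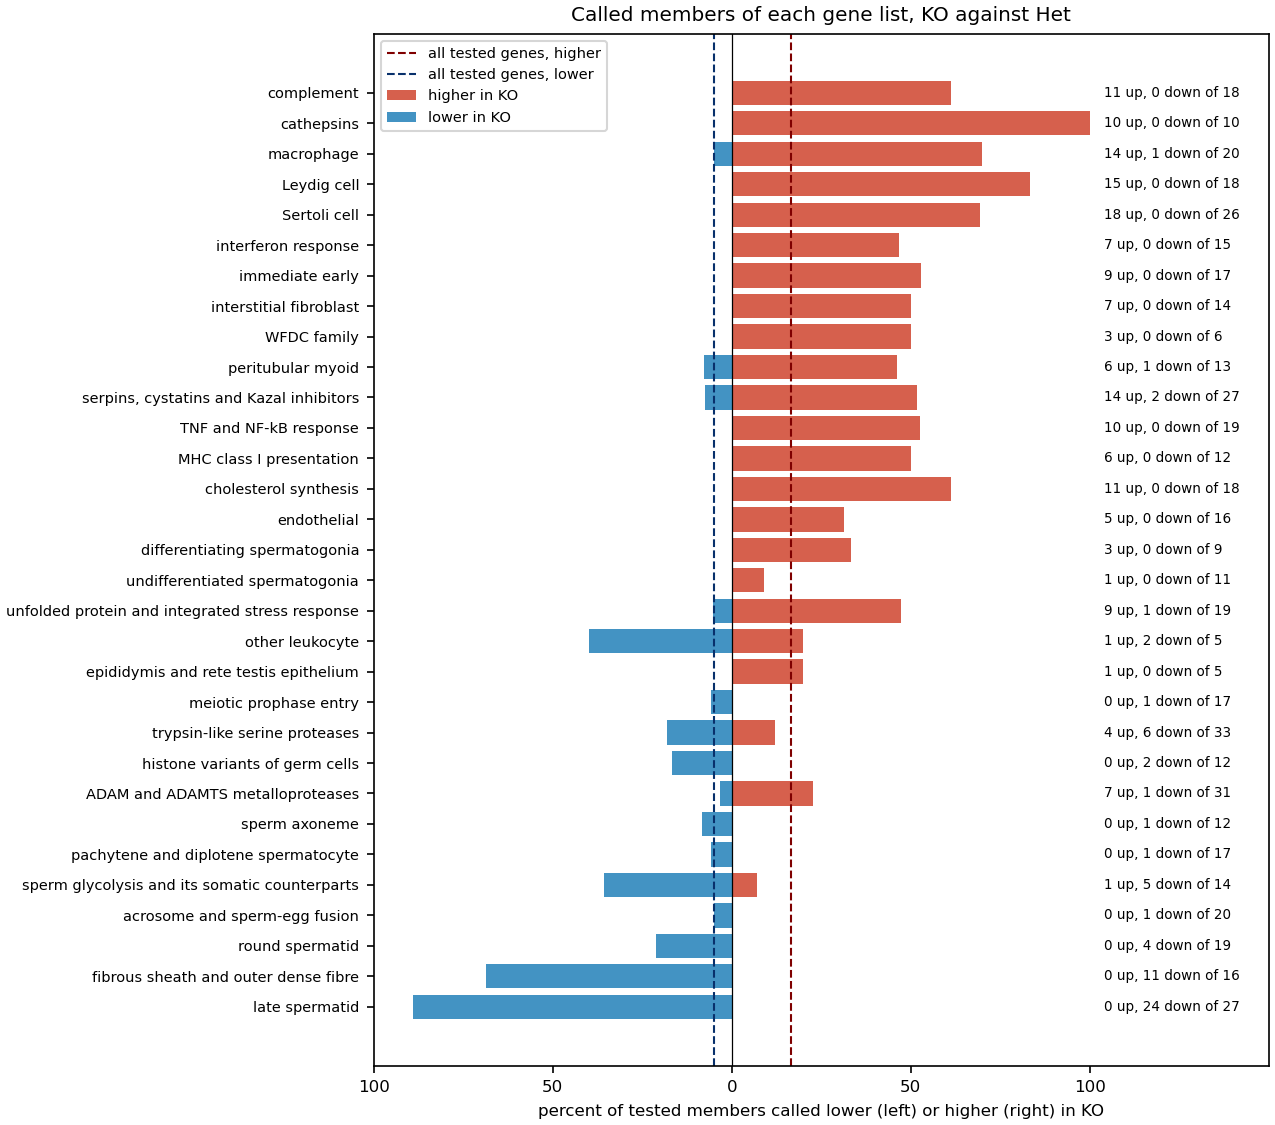
Percent of tested members of each gene list called higher (red, right) or lower (blue, left) in the libraries labelled KO against Het, ordered by median log2 fold change, with counts at the right; dashed lines give the shares of all tested genes, 16.6% higher and 4.93% lower. Late spermatid genes stand at the foot with 24 of 27 lower, and all 10 cathepsins rose.

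Complement genes rose in 11 of 18 cases (16.6% of all tested genes) with none lower and a median of 1.18. Of the risen genes C1qa, C1qb and C1qc also stand on the macrophage list and Serping1 on the serpin list. C3, the central component, had 6.43, 28.1 and 60.2 RPM in the libraries labelled KO, against 1.26, 2.25, 11.6 and 2.02 RPM in Het (log2 fold change 2.76, SE 0.511, adjusted p = 9.17e-04). The spread of C3 in the libraries labelled KO was wide: KO replicate 4 lay within the Het range, and among libraries of number 2 the adjusted p was 0.0508. Masp1 had 9.97, 17 and 30.4 RPM in the libraries labelled KO, against 3.03, 3.87, 7.3 and 0 RPM in Het (log2 fold change 2.36, SE 0.44, adjusted p = 9.83e-04), and properdin, Cfp, 2.75, 6.47 and 11.6 RPM, against 0.379, 0.449, 0.826 and 0.337 RPM in Het (log2 fold change 2.18, SE 0.348, adjusted p = 2.69e-04). C1qa, made by macrophages, had 11.4, 13.6 and 29.8 RPM in the libraries labelled KO, against 4.54, 5.75, 5.51 and 4.72 RPM in Het (log2 fold change 1.47, SE 0.256, adjusted p = 5.65e-04). The mean level of the list was 1.47 above the Het mean in KO libraries of number 1 and 0.67 in those of number 2, and 5 of 17 rose among libraries of number 2.

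Interferon-stimulated genes rose in 7 of 15 cases, where 16.6% of all tested genes rose (median 0.91), a count that was 4 with median-of-ratios scaling, 3 with quantile normalization and 3 to 4 when 1 of Het replicates 1 and 4 or KO replicates 3, 4 and 5 was left out. Irf1, a transcription factor of the response, had 4.34, 8.98 and 15 RPM in the libraries labelled KO, against 1.89, 2.61, 2.06 and 2.02 RPM in Het (log2 fold change 1.62, SE 0.287, adjusted p = 6.35e-04), and Bst2, tetherin, rose by 1.08 on the log2 scale. Stat2 was at the threshold (log2 fold change 0.94, SE 0.329, adjusted p = 0.0499), and its call ended under several settings and single libraries, among them Het replicate 1 (adjusted p = 0.144) and median-of-ratios scaling (0.102). Irf7, Irf9, Mx1, Oasl2, Psmb9, Tap1, Gbp2 and Gbp3 did not pass. The interferon-induced genes Isg15, Ifit1, Ifit2, Ifit3, Mx2, Oas1a, Rsad2 and Usp18 were under the 1 RPM limit.

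Genes of antigen presentation by MHC class I rose in 6 of 12 cases, where 16.6% of all tested genes rose (median 0.58). B2m, the light chain, had 45.9, 75.5 and 107 RPM in the libraries labelled KO, against 31.3, 39.7, 35 and 23.1 RPM in Het (log2 fold change 1.13, SE 0.204, adjusted p = 7.70e-04). Tapbp, the peptide loading protein tapasin, had 146, 185 and 231 RPM in the libraries labelled KO, against 135, 123, 97.1 and 110.5 RPM in Het (log2 fold change 0.68, SE 0.133, adjusted p = 0.00141). Calr, a chaperone of the endoplasmic reticulum, rose by 0.37 on the log2 scale, a call that median-of-ratios scaling ended (adjusted p = 0.106).

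H2-K1, a heavy chain that differs between strains, followed the title number. It was at 32.4, 40.1, 41.4, 147, 186 and 149.8 RPM in KO replicates 1 to 6 and at 19.1, 90.2, 98.4 and 50.03 RPM in Het replicates 1 to 4, so that all 4 libraries of number 1, KO and Het, lay below all 6 of number 2. Over the 10 libraries it did not pass (log2 fold change 0.52, SE 0.487, adjusted p = 0.497). With title number as a covariate it was 1.02 (adjusted p = 2.39e-04), and among libraries of number 2 alone 1.06 (adjusted p = 0.00438), and the number 1 KO libraries against all Het gave -0.51.

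The TNF and NF-kB response list had 10 rises among 19 tested genes, where 16.6% of all rose (median 0.62), Lcn2 among them. Tnfrsf1a, the main TNF receptor, had 22.7, 34.6 and 40.1 RPM in the libraries labelled KO, against 11.7, 12.7, 12.4 and 14.8 RPM in Het (log2 fold change 1.25, SE 0.189, adjusted p = 1.58e-04). Ripk3, a kinase of necroptosis, had 9.53, 11.8 and 21.2 RPM, against 3.91, 3.06, 4.41 and 3.87 RPM in Het (log2 fold change 1.53, SE 0.244, adjusted p = 2.61e-04). The second receptor, Tnfrsf1b, rose by 1.47 on the log2 scale, and its call ended among libraries of number 2 (adjusted p = 0.145), where 6 of 18 rose. The cytokine genes Tnf, Ccl2, Cxcl1 and Cxcl10 were under the 1 RPM limit, and Il6 had no read in any of the 10 libraries.

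The lysosomal cathepsins, proteases that the series' title bears on, rose in 10 of 10 cases, where 16.6% of all tested genes rose (median 1.16); 2 more, Ctsk and Ctsw, were too low to test. Ctsd had 244, 296 and 319 RPM in the libraries labelled KO, against 121, 145, 145 and 113 RPM in Het (log2 fold change 1.12, SE 0.107, adjusted p = 3.56e-06). Ctsb had 201, 246 and 359.6 RPM in the libraries labelled KO, against 107, 115, 116 and 96.9 RPM in Het (log2 fold change 1.21, SE 0.13, adjusted p = 9.41e-06), and Ctsa 49.9, 64.7 and 73.3 RPM, against 34.2, 26.8, 25.3 and 17 RPM in Het (log2 fold change 1.27, SE 0.169, adjusted p = 5.79e-05). All 3 were without overlap between groups, and all 3 share their locus with another gene of the table. The rises numbered 9 under both other scalings and 7 among libraries of number 2. Ctsl also stands on the Sertoli cell list and Ctss on the macrophage list.

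The list of 33 trypsin-like serine proteases held 4 rises and 6 falls, 12.1% against 16.6% of all tested genes and 18.2% against 4.93% (median 0.01). With title number as a covariate 7 rose and 8 fell. Htra1, a secreted protease that cuts matrix proteins, had 51.9, 64.4 and 85 RPM in the libraries labelled KO, against 12.5, 21.7, 11.4 and 11.6 RPM in Het (log2 fold change 2.16, SE 0.181, adjusted p = 1.33e-06); it overlaps Fgfr2 on the other strand. Plat, tissue plasminogen activator, had 24.8, 45.2 and 61.3 RPM in the libraries labelled KO, against 9.09, 16.4, 16.8 and 8.42 RPM in Het (log2 fold change 1.73, SE 0.25, adjusted p = 1.05e-04). Prss58, a testis protease, went the other way at 56.6, 71.7 and 105 RPM in the libraries labelled KO, against 149.5, 122, 136 and 133 RPM in Het (log2 fold change -0.82, SE 0.153, adjusted p = 0.001). Prss21, testisin, which is anchored to the sperm membrane, had 61.2 to 108 RPM in the libraries labelled KO, against 71.5 to 86 RPM in Het (log2 fold change 0.07, SE 0.137, adjusted p = 0.772).

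Of 31 ADAM and ADAMTS metalloproteases 7 rose and 1 fell, 22.6% and 3.23%, shares near the 16.6% and 4.93% of all tested genes (median -0.04). The rises numbered 3 with quantile normalization and 2 among libraries of number 2, and the falls 4 without Het replicate 2 and 0 without Het replicate 1. The sheddases Adam10, Adam9 and Adam17, which release membrane proteins in many tissues, rose by 1.06, 1.02 and 0.85 on the log2 scale. Adam10 had 36.5, 48.2 and 63.9 RPM in the libraries labelled KO, against 20.6, 25.7, 21.5 and 21.9 RPM in Het (log2 fold change 1.06, SE 0.154, adjusted p = 1.15e-04). The call of Adam17 ended with quantile normalization (adjusted p = 0.0578) and among libraries of number 2 (0.119). Of the sperm forms, Adam1b had 77.3 to 109.6 RPM in the libraries labelled KO, against 82.8 to 114 RPM in Het (log2 fold change -0.07, SE 0.121, adjusted p = 0.737), and Adam1a, which overlaps Tmem116 and Mapkapk5, 146 to 215 RPM, against 166 to 274 RPM in Het (log2 fold change -0.31, SE 0.134, adjusted p = 0.115). Adam1a passed with median-of-ratios scaling (adjusted p = 0.0232), under which 5 of the list fell and 6 rose, and without Het replicate 2 (0.0163).

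Protease inhibitors of the serpin, cystatin and Kazal families rose in 12 of 23 cases and fell in 2, where 16.6% of all tested genes rose and 4.93% fell (median 0.71). The list also held Timp1, Timp2, Timp3 and the broad inhibitor A2m, of which Timp1 and Timp3 rose, so that 14 of its 27 genes rose. Of the 27, 7 rose among libraries of number 2, and with median-of-ratios scaling 5 fell. Serpina3n had 19.3, 43.6 and 54.7 RPM in the libraries labelled KO, against 8.58, 4.67, 7.57 and 6.74 RPM in Het (log2 fold change 2.26, SE 0.282, adjusted p = 3.21e-05). Serpina5, an inhibitor of acrosin and of protein C that is needed for male fertility in mice, had 209, 372 and 519.7 RPM in the libraries labelled KO, against 167, 125, 117 and 104 RPM in Het (log2 fold change 1.46, SE 0.2, adjusted p = 7.18e-05). Serpina3c had 27.2, 43.8 and 55.2 RPM, against 14.3, 19.1, 16.7 and 11.6 RPM in Het (log2 fold change 1.41, SE 0.191, adjusted p = 6.67e-05), all 3 without overlap.

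Of 19 WFDC genes in the table besides Wfdc15a, 6 were abundant enough to test and 3 rose, where 16.6% of all tested genes rose. Wfdc1 had 19.7, 43.6 and 63.5 RPM in the libraries labelled KO, against 12.5, 18.5, 19.3 and 18.9 RPM in Het (log2 fold change 1.17, SE 0.24, adjusted p = 0.00194). Wfdc10 had 21.1, 34.8 and 39.3 RPM in the libraries labelled KO, against 16.2, 27.7, 6.47 and 10.1 RPM in Het (log2 fold change 1.16, SE 0.29, adjusted p = 0.008), and Wfdc9, which overlaps it on the other strand so that their reads cannot be told apart, 5.1, 10.8 and 11.5 RPM, against 3.28, 7.73, 2.62 and 4.88 RPM in Het (log2 fold change 1.002, SE 0.288, adjusted p = 0.0181). The call of Wfdc9 ended without Het replicate 1 (adjusted p = 0.0636) or Het replicate 3 (0.0734) and with quantile normalization (0.111). Wfdc3 had 21.9 to 35.5 RPM in the libraries labelled KO, against 28 to 35.2 RPM in Het (log2 fold change -0.20, SE 0.158, adjusted p = 0.396). None of the 6 was called among libraries of number 2.

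Genes of the unfolded protein and integrated stress responses rose in 9 of 19 cases and fell in 1, where 16.6% of all tested genes rose and 4.93% fell (median 0.32). The rises numbered 4 under median-of-ratios scaling and 4 of 18 among libraries of number 2. Atf4, the transcription factor of the integrated stress response, had 37.4, 50.4 and 51.8 RPM in the libraries labelled KO, against 21.2, 27.9, 31.2 and 26.8 RPM in Het (log2 fold change 0.82, SE 0.147, adjusted p = 6.85e-04). Xbp1 had 28.8, 39.2 and 43.4 RPM in the libraries labelled KO, against 13.4, 20.6, 15.7 and 18.4 RPM in Het (log2 fold change 1.10, SE 0.169, adjusted p = 1.88e-04), and Sesn2, which restrains mTORC1 under stress, 36.8, 48.1 and 72.1 RPM, against 24.6, 26.8, 21.5 and 23.4 RPM in Het (log2 fold change 1.004, SE 0.164, adjusted p = 3.26e-04). The chaperone Hspa5 rose by 0.30 on the log2 scale, a call that ended with median-of-ratios scaling (adjusted p = 0.326), and Canx by 0.58.

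Immediate early genes, which respond within minutes to growth signals and to handling of tissue, rose in 9 of 17 cases, where 16.6% of all tested genes rose (median 0.91), and in 5 with quantile normalization, where 1 fell. Klf6 had 9.64, 17.3 and 18.4 RPM in the libraries labelled KO, against 7.57, 5.48, 4.68 and 6.4 RPM in Het (log2 fold change 1.26, SE 0.225, adjusted p = 6.63e-04). Jun had 8.42, 11.9 and 16.7 RPM in the libraries labelled KO, against 7.57, 5.21, 5.64 and 4.04 RPM in Het (log2 fold change 0.97, SE 0.243, adjusted p = 0.00791), and Fos, 1.74, 3.41 and 4.91 RPM, against 0, 2.25, 0 and 0.842 RPM in Het (log2 fold change 1.42, SE 0.37, adjusted p = 0.0102). Fos and Cyr61 (1.61 to 7.14 RPM in the libraries labelled KO, against 0 to 1.53 RPM in Het) rest on few reads, and 2 of 16 rose among libraries of number 2, without Jun (adjusted p = 0.0793) or Fos (0.137). The sources used here do not give the time from death to sampling, and its part in these values was not tested.

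**Figure D5:**
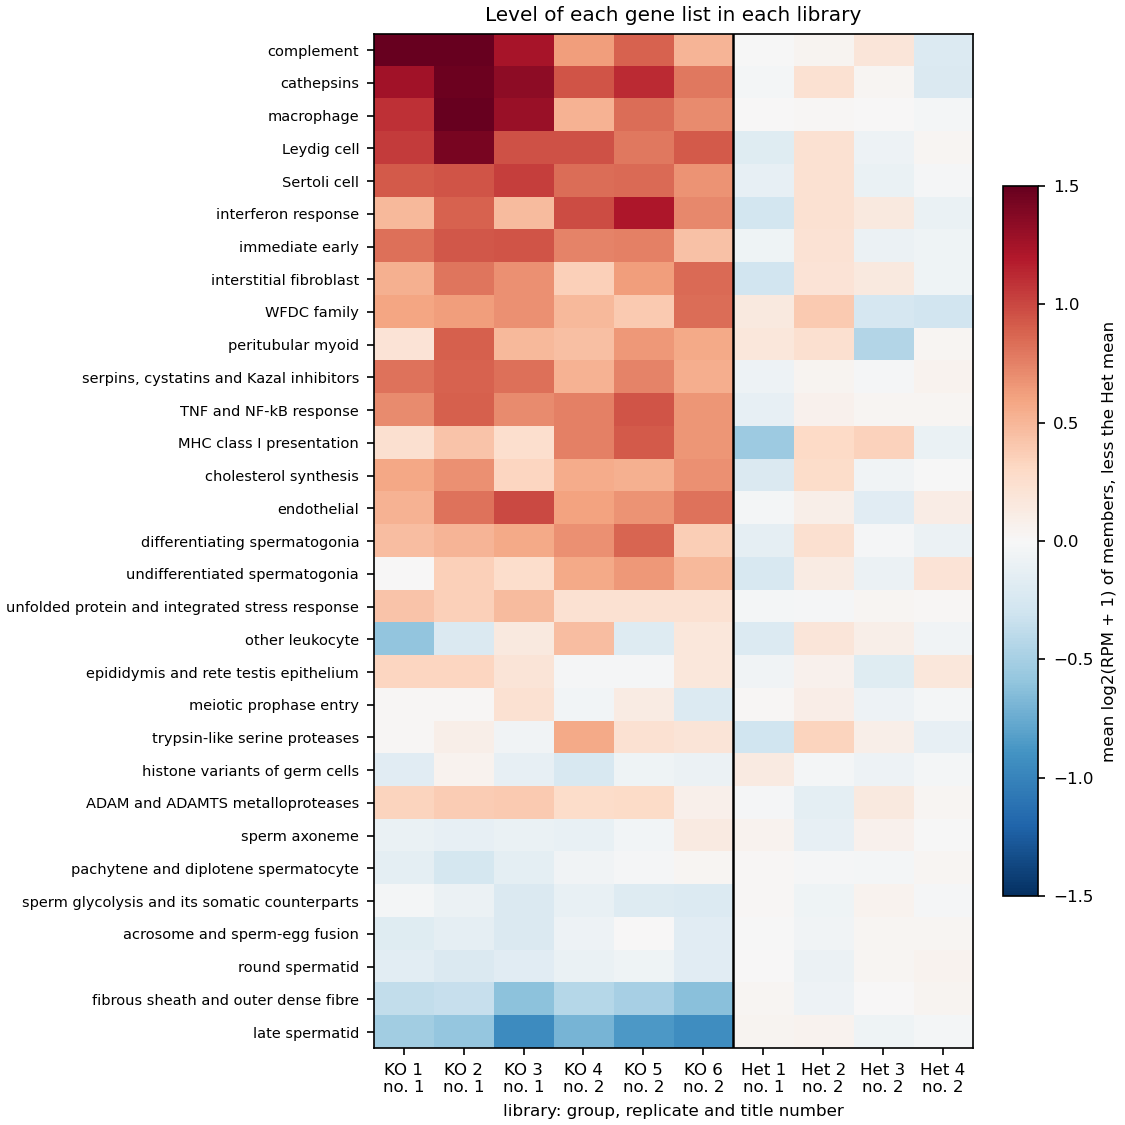
Mean log2(RPM + 1) of the tested members of each gene list, less its Het mean (colour, red higher and blue lower; the scale ends at 1.5), in each library labelled KO (left of the line) and Het (right). Complement, cathepsin and macrophage genes are reddest in KO replicates 1 to 3, of title number 1, and late spermatid genes are blue in all 6 libraries labelled KO (-0.94 to -0.53).

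The libraries labelled KO also differed among themselves. In a fit with the 2 title numbers as separate groups beside Het, 29 genes were higher (0.179%) and 20 lower (0.123%) in the KO libraries of number 1 than in those of number 2. These counts were 66 and 56 without Het replicate 1 and as low as 12 and 3 without KO replicate 2. The genes named above that passed were Wfdc15a (number 1 less number 2, -1.10), H2-K1 (-2.06), Defb33 (1.16) and Serpina5 (0.83), with Ccdc40 of the axoneme (-0.70). In the fit of all 10 libraries, KO replicates 6 and 4 were the KO libraries nearest to the Het mean for 25.8% and 23.1% of the 3501 called genes, and Het replicate 2 the Het library nearest to the KO mean for 38.4%.

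The Het libraries were set beside the WT libraries as a check of the chosen reference. In a fit of all 13 libraries no gene was called between Het and WT (16235 tested, 0.00%), with 957 at an unadjusted p under 0.05 by limma and 868 by limma-voom, which also called none. Some of the largest rises nevertheless had WT values outside the Het range. Timp1 was at 0.607, 9.93 and 6.86 RPM in WT replicates 1 to 3, Lrg1 at 9.01, 28.8 and 38.6 RPM and Lcn2 at 531, 941 and 1012 RPM. For these 3 genes WT replicates 2 and 3 were above all 4 Het libraries. Of the 12 largest rises 8 were also called between the libraries labelled KO and WT, where 832 genes were higher (5.10%) and 477 lower (2.92%), and their log2 fold changes were 0.91 to 2.38 against WT and 2.21 to 3.92 against Het.

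For the falls, WT replicates 1, 2 and 3 lay inside the Het range for 9, 6 and 7 of the 12 genes. Prm2 was at 6235, 4548 and 4309 RPM in WT replicates 1 to 3, Tppp2 at 87.9, 64.4 and 61.7 RPM and Bpifa3 at 115, 126 and 95.2 RPM. Of the 12 largest falls 11 were also called against WT, with -1.85 to -1.09 against WT and -1.87 to -1.29 against Het. Both sets of values share the libraries labelled KO, and the 12 were chosen on the comparison with Het.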

How the data were processed

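Per the labels' protocols, total RNA of whole testes (15 weeks, tunica removed) went into Smart-seq2 with about 2 ng of RNA and 11 cycles of PCR. FastQC 0.11.8, Trim Galore 0.6.6 and genome mm10 are named, per the submitters' processing notes; the sources used here give no aligner, counter, annotation or strand. The deposited table holds log2 RPM for 25965 genes in 13 libraries.

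In each library the lowest value stands for 0.9 read and was set to 0, and above it at least 99.964% of values came to whole reads within 0.01 read. The RPM values rest on library totals of 4.51 to 11.1M reads, so that 1 read was worth 0.0899 to 0.222 RPM and a count of 0 allows up to 3 reads (95% confidence, counting error only, as PCR copies carry no molecular identifiers). The 13 mitochondrial genes are listed at 0. RPM is not divided by gene length. No 2 libraries agreed within sampling noise.

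limma 3.58.1 (R 4.3.3) was fitted with a mean-variance trend to log2(RPM + 1) of the 6 libraries labelled KO and 4 Het libraries, over the 16241 genes averaging 1 RPM or more, two-sided, with Benjamini-Hochberg adjustment over these genes and 0.05 as threshold. Adjusted p-values in all texts come from this fit unless a setting is named. Fold changes are of RPM + 1 and understate those of low genes. For Wfdc15a an exact permutation test, two-sided, over 210 arrangements was added. The KO libraries of both title numbers were compared in a fit of 3 groups with Het, and Het with WT in a fit of 13 libraries. Each library was taken as a mouse, because the design text counts mice; if they are not, p-values measure technical spread. On simulated reads of this design (16333 genes) the fit found 30% of changes of 1.5-fold and 96% of 2-fold, with 4 false calls. The simulation gave every gene the same relative spread, balanced changes up and down, and no difference by title number. Its false calls therefore do not measure those of the real fit.

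The 32 gene lists were written from general knowledge, and they and the comparison were chosen with earlier results of these data known. Lists have no test: their counts are given with the share of all tested genes, and a list's level averages log2(RPM + 1) of the genes tested. Named are Wfdc15a, the 12 largest rises and falls among called genes without overlap between groups (predicted and Rik genes left out), the first 2 tested genes of each list and its 3 called members of lowest adjusted p, some of which are not reported here; other genes were named after their values were seen, which holds for Tnp1, Smcp, Actl7a and the members given as below the limit or not passing. Symbols and positions are those of the table, where 7479 genes overlap another. List members absent under the symbol used dropped out. Of 27 acrosome and fusion genes 20 were found, and of 20 histone variants and chromatin factors 12. Start sites came from RefSeq (GRCm38.p6) and lay within 50 bases of the start in the table for 73.1% of genes.

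The alternatives were the pseudocount, the filter, median-of-ratios scaling, quantile normalization, limma-voom on the recovered reads, title number as covariate or restriction, WT libraries sharing the spread, a replicate block and leaving out each library.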

Additional observations from a re-analysis of the deposited data

Results flagged for a closer look

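Over 340 groups of values checked, 14 had 1 library far from the others, a rate below the 1 in 20 that chance gives. Among Het values these were Htra1 in Het replicate 2 (21.7 RPM), Vim in Het replicate 2 (61.6 RPM), Egr2 in Het replicate 2 (0.0899 RPM, 1 read, the other Het libraries at 0), Csf1r in Het replicate 3 (13.2 RPM), Lyz2 in Het replicate 4 (25.1 RPM), Col1a1 in Het replicate 4 (0.842 RPM), Prss21 in Het replicate 1 (86.0 RPM) and Wfdc1 in Het replicate 1 (12.5 RPM). Among the libraries labelled KO they were Atf4 in KO replicate 1 (37.4 RPM), Wfdc9 in KO replicate 4 (5.10 RPM) and Klf6 in KO replicate 6 (9.64 RPM). The levels of 3 lists stood apart, in log2 units relative to the Het mean: the TNF and NF-kB list in Het replicate 1 (-0.13), the immediate early list in Het replicate 2 (0.22) and the sperm axoneme list in KO replicate 6 (0.14).

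Of the genes named by the rule 5 differed between the KO libraries of title numbers 1 and 2 when that difference was tested against the same Het libraries. They were Wfdc15a (log2 -1.10, adjusted p = 0.0376), H2-K1 (-2.06, adjusted p = 0.0211), Ccdc40 (-0.70, adjusted p = 0.0437), Defb33 (1.16, adjusted p = 0.0317) and Serpina5 (0.83, adjusted p = 0.032). Number 1 less number 2 is the sign of each. Defb33 was at 21.3, 19.4, 14.6, 6.87, 8.35 and 7.58 RPM in KO replicates 1 to 6 and Serpina5 at 439, 441, 519.7, 209, 305 and 282 RPM. The sources used here do not say what the title number marks, and its part in these differences was not tested.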

How the results depend on the processing

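The counts of genes called between the libraries labelled KO and Het moved by more than 1.5 times under 4 settings. The rises numbered 1604 with median-of-ratios scaling, 1282 with quantile normalization, 1474 with the KO libraries of number 2 only (9.15%) and 975 among libraries of number 2. The falls numbered 1483 with median-of-ratios scaling and 493 among libraries of number 2, a fit of 6 libraries. Leaving out single libraries gave 1961 to 2700 rises and 599 to 785 falls, and limma-voom, the filters, the pseudocount and title number as covariate stayed within 1.5 times. No gene called here was called in the other direction under any setting tried. Between KO numbers 1 and 2 the counts were 6 and 4 without a filter, 12 lower with limma-voom and 41 lower with quantile normalization, and with single libraries left out they ranged from 12 to 66 higher and 3 to 56 lower. Het against WT gave 0 to 3 lower, the 3 without WT replicate 1.

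For Wfdc15a the log2 difference was -0.87 to -0.46 with single libraries left out, and -1.22 with the KO libraries of number 1 only.

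Of the 138 named genes tested, 13 not called in either fit changed sign under some setting. With the KO libraries of number 1 only Prss21 was -0.11, H2-K1 -0.51 and Ccdc39 0.0357. With those of number 2 only Sycp1 was -0.0579, Hba-a1 -0.15, Acr 0.0773, Adam1b 0.0613 and Ccdc40 0.14. With limma-voom Sycp1 was -0.0551 and Hba-a1 -0.0829. With median-of-ratios scaling Sycp3 was -0.11, Sycp1 -0.16, Krt8 -0.0167, Hba-a1 -0.0986 and Prss21 -0.10. With quantile normalization Acrv1 was 0.0532, Ldhc 0.00, Sycp1 -0.18, Krt8 -0.19, Krt18 -0.0489, Hba-a1 -0.22, Acr 0.0844 and Prss21 -0.0342. With the replicate block Krt18 was -0.0843, Prss21 -0.0618, H2-K1 -0.0264 and Ccdc39 0.0426. Among libraries of number 2 Sycp1 was -0.0803, Hba-a1 -0.30, Acr 0.031, Adam1b 0.0653 and Ccdc40 0.10. With the number as covariate Sycp1 was -0.0047 and Acr 0.0405. When single libraries were left out the ranges were Acrv1 -0.10 to 0.0184, Sycp1 -0.0943 to 0.19, Krt8 -0.0013 to 0.24, Krt18 -0.0269 to 0.27, Hba-a1 -0.14 to 0.31, Acr -0.0507 to 0.0438, Prss21 -0.0191 to 0.14, Adam1b -0.14 to 0.0084 and Ccdc39 -0.0762 to 0.0116. The cause was not tested.

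The replicate numbers do not pair the samples: deviations of same-numbered KO and Het libraries correlated at 0.128, 0.0195, -0.0333 and -0.0039 over genes. With the replicate block 2611 genes were higher and 763 lower, and KO number 1 against number 2 has no such fit. In it KO replicates 5 and 6 have no partner. Wfdc15a gave -0.98 over 4 pairs (exact p = 0.125, the smallest possible), and Het against WT gave 0 and 0. Depth limits genes near 1 RPM, which rest on few reads per library.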

Other observations

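Genes of the X chromosome are described here after their values were seen and without a test. Of 605 tested X-linked genes 155 were higher in the libraries labelled KO (25.6%) and 30 lower, with a median log2 fold change of 0.38. On the autosomes the share called higher ran from 13.6% to 18.9% and the median from 0.14 to 0.19. On chromosome 2, which carries Wfdc15a, 16.4% were higher and 5.0% lower, with a median of 0.15. X-linked genes are silenced in spermatocytes and partly in spermatids, as background, and the share of cell types in these medians was not tested.

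Predicted and Rik genes made up 171 of the 2701 genes called higher and 231 of the 800 called lower, 6.33% and 28.9%. Among all tested genes they were 2662 (16.4%).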
